A study of Mus musculus with 9 samples.

Results

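The genes described here encode the proteins of the mitochondrial ribosome. They were chosen by symbol alone, as every gene whose name begins with Mrpl or Mrps and a number, pseudogenes left out, which gave 77 of the 18423 genes measured. By symbol, 48 name large-subunit and 29 name small-subunit proteins. By their known place in the assembled particle, 50 belong to the large and 26 to the small subunit, since Mrps18a and Mrps30 sit in the large one. The product of Mrps36 is now counted as a part of the oxoglutarate dehydrogenase complex and not of the ribosome.

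The mitochondrial ribosome, or mitoribosome, translates the few messages kept in mitochondrial DNA, which encode core subunits of the respiratory chain and of ATP synthase. All its proteins are encoded in the nucleus and imported. Some descend from bacterial ribosomal proteins and others arose with mitochondria. Parietal cells, the acid-secreting cells of the stomach corpus, are among the cells richest in mitochondria because proton pumping uses much ATP.

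Poly(A) RNA was sequenced from corpus glands that were loosened with EDTA and scraped off, in 9 libraries of 3 genotypes with 3 each. WT was wild type. Ctrl carried Atp4bCre and Rosa26NICD, that is, Cre recombinase under the promoter of the parietal cell gene Atp4b and a Rosa26 allele of the Notch intracellular domain. Arid1a_Het carried both of these and Arid1aflox/+, a loxP-flanked copy of the chromatin remodeller gene Arid1a beside a normal one. Cre is thus driven in parietal cells, while the glands hold all epithelial cells. Tissue came from tumours or, in normal stomachs, from the matching region. Whether the libraries of a group are separate animals is not stated in the labels, so the spread behind each p-value may be partly technical, and Arid1a_Het 3 was registered apart from the rest.

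The libraries held 22651385 to 29478481 reads assigned to genes. Arid1a itself was at 13.5, 7.79 and 11.97 FPKM (fragments per kilobase of gene length, scaled to library depth) in WT 1 to 3, 14.9, 13.3 and 16.2 in Ctrl and 8.94, 5.90 and 6.96 in Arid1a_Het, so every library with the floxed allele lay below every Ctrl library, with a difference of -0.95 in log2(FPKM + 1), although this did not pass across all genes (limma adjusted p = 0.299). All 15 parietal cell markers were above 0 in every library, and their mean log2 level was 6.29 to 7.65 in WT, 4.57 to 5.59 in Ctrl and, for Arid1a_Het, 5.01 to 6.67. Exocrine pancreas markers had a mean log2 level of 8.10 in Ctrl 1 and 6.88 in Arid1a_Het 3, and all others were at 1.17 to 1.96. Only in these 2 libraries was none of the 9 markers at 0. Their summed FPKM ran otherwise, at 12653 in WT 2, 11439 in WT 3 and 8725 in Arid1a_Het 2, against 4070 in Ctrl 1 and 1825 in Arid1a_Het 3. The pepsinogen gene Pgc made up 16.5% of the summed values in WT 2 and 17.9% in Arid1a_Het 2, against 1.49% to 8.38% elsewhere. In such bulk samples, fewer cells of a type and less RNA per cell cannot be told apart.

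The 77 genes are scattered over 17 chromosomes, with 10 on chromosome 11, by the GENCODE M21 annotation of the GRCm38 genome. Exons of 32 of them overlap exons of another gene, and the sources used here do not say whether reads were counted by strand, so such reads cannot be told apart. Mrpl46 and Mrps11 overlap head to head by 173 bases, and Mrpl43 overlaps Twnk, the mitochondrial DNA helicase gene, by 507 bases. A processed pseudogene at least 95% identical over at least 200 bases exists for 17 of the 77, whose values are uncertain for that reason. Mrpl23 is an extreme case, since Mrpl23-ps1 matches it over 507 bases at 100% identity and the parent gene held 1 to 6 reads per library.

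RefSeq start windows on GRCm38.p6, which run from 250 bases before to 50 bases after a start, were found for 68 of the 77 genes, 74 windows in all. Motifs of factors known to drive nuclear genes for mitochondrial proteins were searched on both strands. The NRF1 motif, GCGCA and GCGC with any base between them, was in 13 of the 74 windows (17.6%), against 4.60% of all 32851 windows. The ETS motif CCGGAAG, bound by GABP (NRF2), was in 25 (33.8%), against 8.86%, and the YY1 motif AANATGGCG in 10 (13.5%), against 2.38%. At least 1 of these was in 41 windows (55.4%), against 14.2% of all windows. The estrogen-related receptor motif TCAAGGTCA was in 0 of the 74, against 0.423% of all windows. At so low a share, 0 of 74 windows does not show that the motif is rarer here. The windows hold 250 bases before a start and only 50 after it. NRF1 had 11 matches before the start and 3 after it, ETS 19 and 9, and YY1 2 and 8. Whether these positions differ from an even spread over the windows was not tested. A match describes the letters only and is not a binding site. No share over tested genes only, or over windows of like base content, was computed. The higher shares are thus not shown to be particular to the mitochondrial ribosomal genes.

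Upstream sequences of 4 of these genes are shown because they carry the commonest motifs. Each runs 5′ to 3′ on the gene's strand with the matched letters in capitals, and bases in an annotated exon of any gene were left off, so the lengths differ. Mrpl12 (chr11:120484387-120484612, plus strand) has an NRF1 match from -81 to -72 counted from the RefSeq start, and Mrpl17 (chr7:105811100-105811337, minus strand) has an NRF1 match from -49 to -40 and an ETS match farther up. Mrps22 (chr9:98601680-98601929, minus strand) and Mrpl52 (chr14:54426659-54426908, plus strand) have ETS matches, from -11 to -5 and from -47 to -41.
Mrpl12: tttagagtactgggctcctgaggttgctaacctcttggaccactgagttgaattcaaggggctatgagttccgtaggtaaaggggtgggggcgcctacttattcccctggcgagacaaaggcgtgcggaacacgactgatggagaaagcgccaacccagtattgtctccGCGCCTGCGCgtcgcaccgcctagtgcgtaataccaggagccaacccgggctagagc
Mrpl17: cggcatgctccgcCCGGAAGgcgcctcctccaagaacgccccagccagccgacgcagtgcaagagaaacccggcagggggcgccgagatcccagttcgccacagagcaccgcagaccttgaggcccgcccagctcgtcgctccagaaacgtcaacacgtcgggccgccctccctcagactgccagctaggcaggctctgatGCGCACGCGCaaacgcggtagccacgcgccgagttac
Mrps22: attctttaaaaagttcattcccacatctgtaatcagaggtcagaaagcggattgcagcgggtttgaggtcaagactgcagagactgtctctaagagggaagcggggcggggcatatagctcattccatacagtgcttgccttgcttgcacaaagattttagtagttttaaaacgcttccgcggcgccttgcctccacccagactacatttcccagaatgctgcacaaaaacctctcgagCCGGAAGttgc
Mrpl52: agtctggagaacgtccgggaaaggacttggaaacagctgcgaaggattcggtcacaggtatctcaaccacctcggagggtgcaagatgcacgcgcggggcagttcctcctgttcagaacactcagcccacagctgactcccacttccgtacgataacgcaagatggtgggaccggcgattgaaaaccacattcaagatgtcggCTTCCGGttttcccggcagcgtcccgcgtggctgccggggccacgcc

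Of the 77 genes, 76 reached the minimum for testing, 1 FPKM or more in 3 or more libraries. Their mean FPKM had a median of 21.1, against 7.90 over the 11209 genes tested, and 76.5% of tested genes lay below that median. Large-subunit genes ran from 2.53 to 74.5 FPKM with a median of 22.7, and small-subunit genes from 2.32 to 51.4 with a median of 18.6. Counting precision was high for most of them, since 72 held at least 300 reads in every library.

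Mrpl42, which encodes a mitochondria-specific large-subunit protein, had the highest mean at 74.5 FPKM. Mrpl12, the homologue of the bacterial L7/L12 stalk protein that helps translation factors onto the ribosome, followed at 68.2 FPKM. Mrpl28 was at 56.9 and Mrps24, the homologue of bacterial S3, at 51.4 FPKM. Neighbours in this order did not differ beyond their spread, as Mrpl42 ranged from 57.9 to 93.6 FPKM and Mrpl12 from 53.6 to 78.9 over the 9 libraries. At the low end stood Mrps36 at 1.04, the small-subunit gene Mrps33 at 2.32 and the large-subunit gene Mrpl48 at 2.53 FPKM. Each of these has a near-identical pseudogene, and so does Mrpl42 at the high end (Gm6419, 96.3% identical over 429 bases). Mrpl23, the homologue of the bacterial tunnel-exit protein L23, was not tested and lay between 0.024 and 0.118 FPKM.

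**Figure D1:**
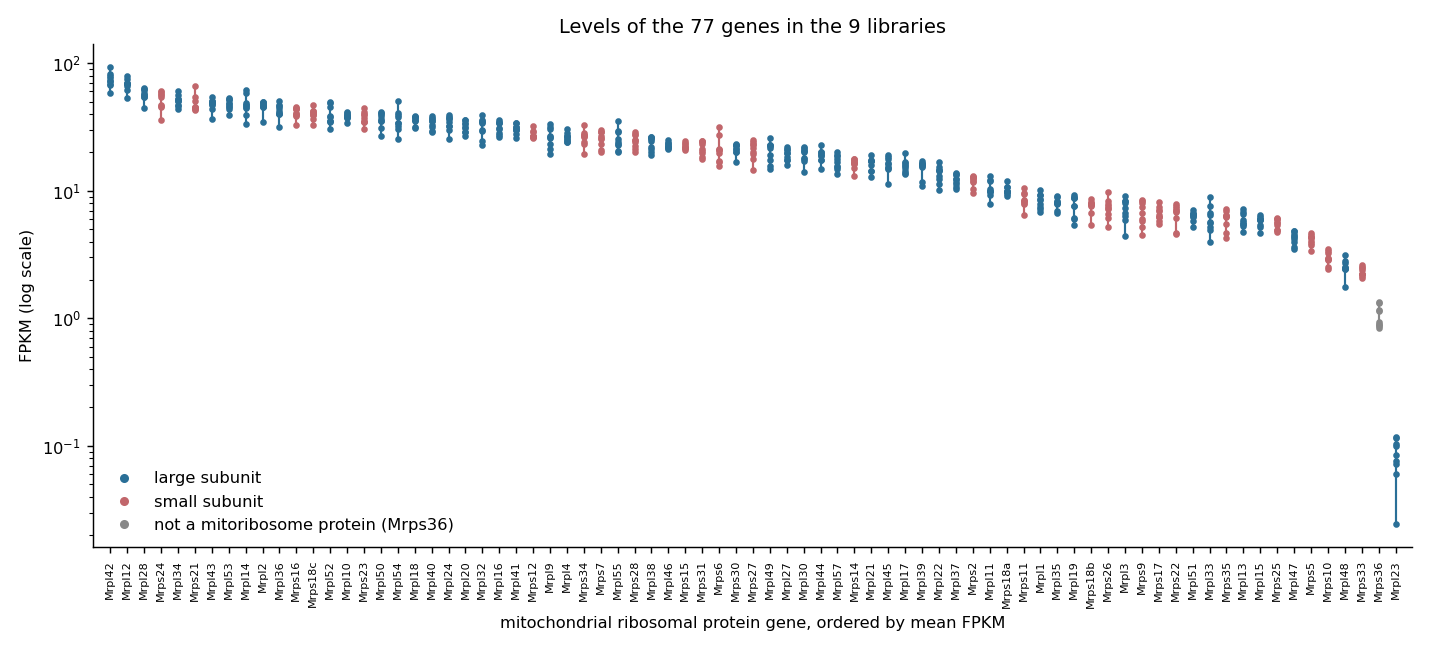
FPKM (log axis) of each of the 77 genes in the 9 libraries, 1 point per library, ordered by mean; the vertical line spans the lowest to the highest library, blue marks large-subunit, red small-subunit genes and grey Mrps36. All but Mrps36 and Mrpl23 have means from 2.32 FPKM up.

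The other genes named for their roles ranged from 6.54 to 38.5 FPKM. Mrpl10 and Mrpl11, whose bacterial homologues form the base of the stalk, were at 38.5 and 10.5 FPKM. Mrps12, the homologue of the decoding-site protein S12, was at 27.7 FPKM. Mrpl44, which lies near the exit tunnel, was at 18.9 FPKM, and Mrps22, a small-subunit protein whose loss causes human disease, at 6.54 FPKM. Mrps18b, 1 of 3 relatives of bacterial S18, was at 7.56 FPKM and is counted here among the mitochondria-specific genes.

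Levels varied little among libraries. The SD of log2(FPKM + 1) over the 9 libraries had a median of 0.163 for the 76 genes, against 0.313 for all tested genes, and 75 of the 76 were below the latter value. It ran from 0.068 in Mrps15 to 0.318 in Mrps6. This spread pools the 3 genotypes, so it covers differences between groups and between libraries alike. All tested genes had a lower median level, 7.90 FPKM against 21.1, and genes of like level were not compared.

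The first comparison, Ctrl against WT, sets glands with both Atp4bCre and Rosa26NICD against glands with neither, so that Cre, NICD and any difference between tumour and normal tissue cannot be told apart. None of the 76 mitochondrial ribosomal genes passed the threshold of an adjusted p under 0.05 in either direction (limma, Benjamini-Hochberg over all tested genes). Over all 11209 tested genes, 7.01% were called higher and 3.04% lower. At an unadjusted p under 0.05 stood 5 of the 76 (6.58%), against 32.1% of all tested genes. That count was 11 under median-ratio scaling, 10 with the replicate block and 8 under quantile normalization or with no filter. It was 3 with limma voom on whole reads, and 1 to 7 with a single library left out. At the adjusted threshold, limma voom on whole reads called 0 of the 76. Differences ran from -0.40 to 0.47 in log2(FPKM + 1), and every 95% interval lay within 1 log2 unit of 0 in either direction, which held for 61.6% of all tested genes; under median-ratio scaling 70 of the 76 intervals did so. The median difference was 0.078, against 0.235 over all tested genes, and 50 of 76 differences were above 0, but under median-ratio scaling of the libraries the median was -0.15 with 12 above 0, and under quantile normalization -0.15 with 19. These scalings moved the median of all genes by -0.22 and -0.25. The side of 0 on which most of these genes lay therefore differed between scalings, while in all 3 the median of the 76 was below the median of all tested genes. With no filter on low values this gap was gone, at 0.078 for the 76 and 0.076 for all genes.

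**Figure D2:**
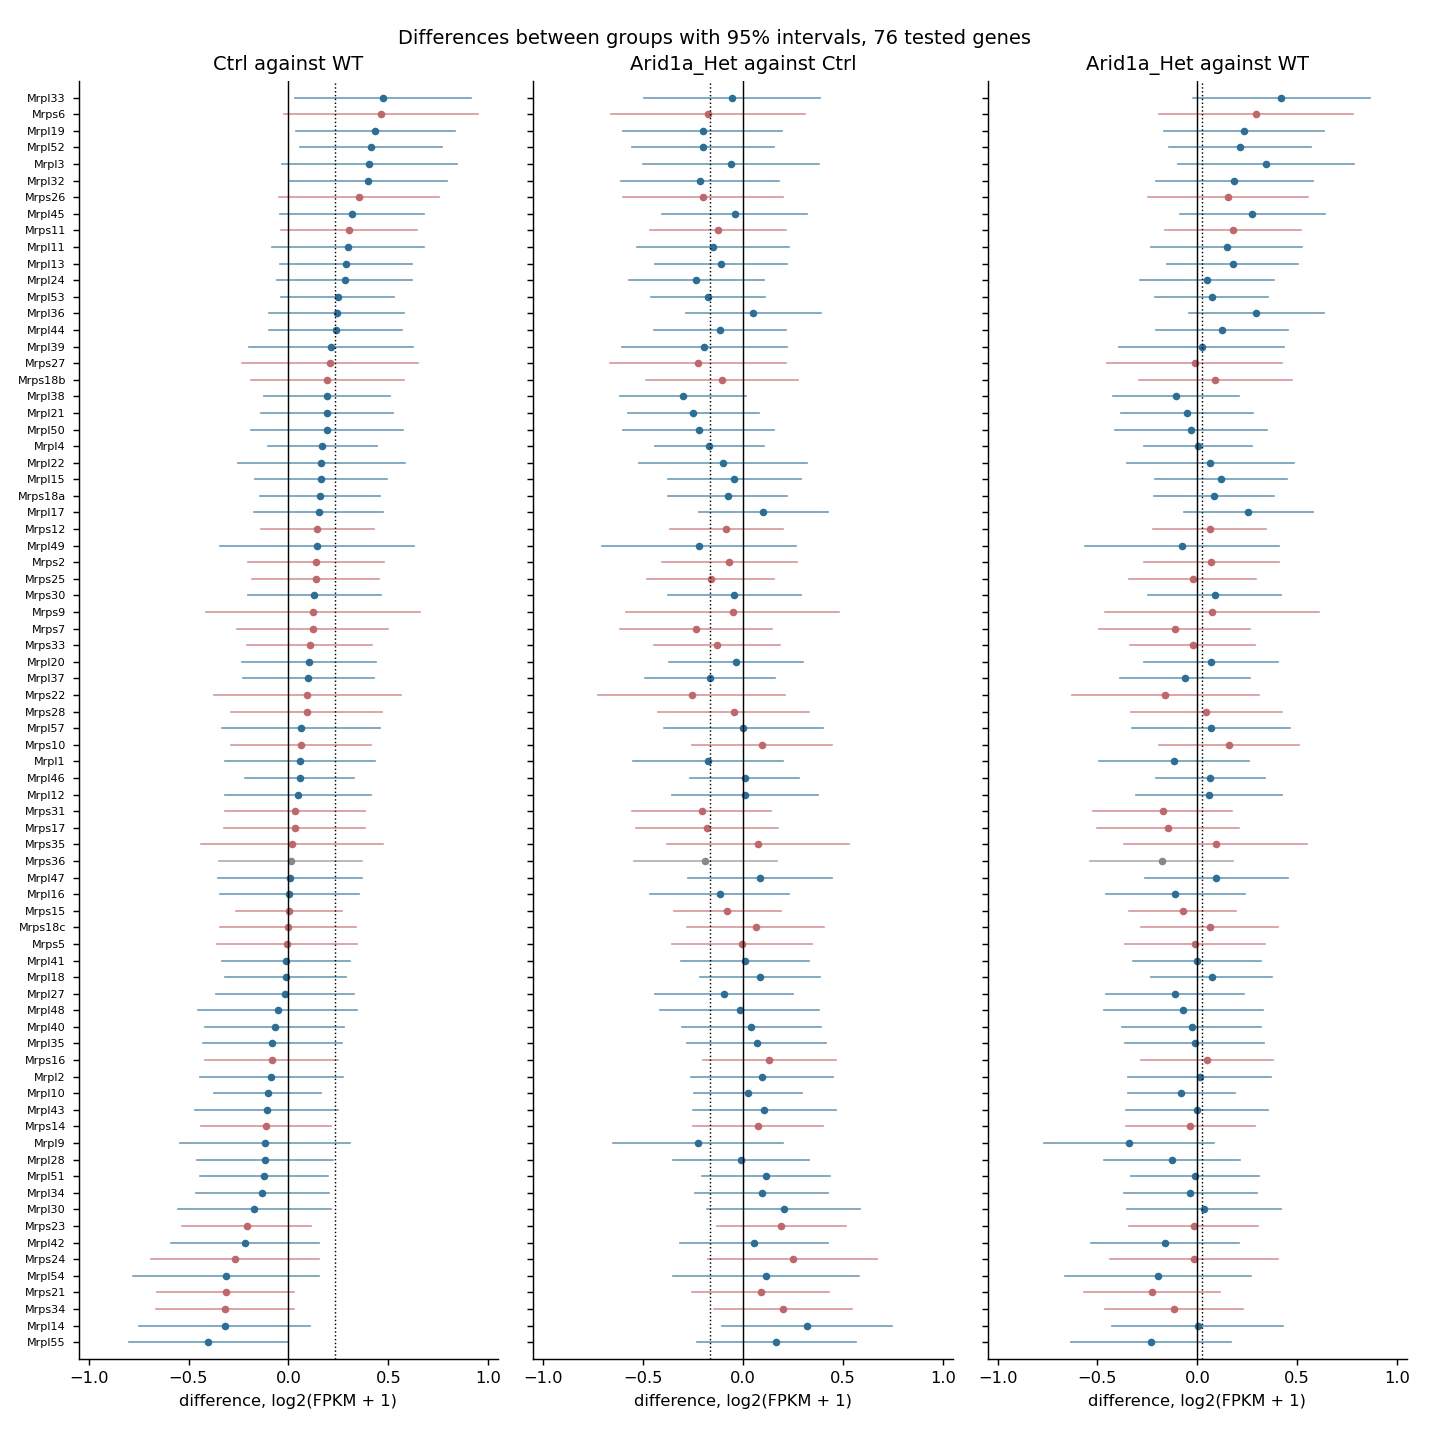
Difference in log2(FPKM + 1) with its 95% interval for each of the 76 tested genes in the 3 comparisons, in the order of Ctrl against WT; blue marks large-subunit, red small-subunit genes, grey Mrps36, and the dotted line is the median of all tested genes. In every panel the intervals stay between -1 and 1, and no gene passed an adjusted p of 0.05.

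The 4 genes of lowest p all belong to the large subunit. Mrpl52 (chromosome 14, 54426909 to 54429756, plus strand) encodes a mitochondria-specific protein. It was at 35.3, 30.6 and 35.3 FPKM in WT 1 to 3, 48.5, 49.5 and 38.2 in Ctrl, and 37.9, 34.7 and 45.6 in Arid1a_Het. All 3 Ctrl libraries lay above all 3 WT libraries, with a difference of 0.41 (95% interval 0.056 to 0.77, limma adjusted p = 0.115). Mrpl19 (chromosome 6, 81957851 to 81965958, minus strand), the homologue of bacterial L19, was at 6.01, 5.41 and 7.64 FPKM in WT, 8.84, 8.78 and 8.96 in Ctrl and 7.62, 6.15 and 9.23 in Arid1a_Het. The Ctrl libraries were close together and again above every WT library, by 0.43 (adjusted p = 0.13 by limma), but 1962 bases of its exons overlap Gcfc2 on the other strand.

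Mrpl33, the homologue of bacterial L33, showed the largest difference of the 76 in the values as deposited, 0.47 (limma adjusted p = 0.134). Its values were 3.96, 4.95 and 5.18 FPKM in WT, 7.58, 6.70 and 6.41 in Ctrl and 5.65, 5.57 and 9.01 in Arid1a_Het, so that WT lay below both other groups without overlap. Mrpl32, a protein that is matured by the mitochondrial m-AAA protease, was at 29.4, 22.8 and 29.9 FPKM in WT, 34.9, 39.3 and 34.6 in Ctrl and 34.0, 24.7 and 35.7 in Arid1a_Het. Its Ctrl libraries were all above WT, by 0.40 (limma adjusted p = 0.151), while Arid1a_Het 2 was nearly as low as WT 2. Under median-ratio scaling the differences of Mrpl52, Mrpl19, Mrpl33 and Mrpl32 were smaller, at 0.15, 0.20, 0.24 and 0.14.

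Mrps6, the homologue of bacterial S6, was singled out after its values were seen, because it was called under 1 alternative. It was at 15.7, 16.8 and 19.7 FPKM in WT, 20.9, 21.4 and 31.8 in Ctrl and 20.8, 17.2 and 27.5 in Arid1a_Het. The difference was 0.46 with a limma adjusted p of 0.168. With the replicate number as a block over all 9 libraries, the limma adjusted p was 0.048. Over its alternatives the adjusted p ran from 0.048 to 0.51, and without Ctrl 3 the difference was 0.28. Its exons overlap those of Slc5a3, a transporter gene, and Gm49711 on the same strand by 305 bases in all.

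Mrpl55, a mitochondria-specific large-subunit gene, stood farthest on the other side. It was at 24.0, 35.1 and 29.5 FPKM in WT, 20.4, 25.4 and 20.3 in Ctrl and 23.1, 28.7 and 22.6 in Arid1a_Het. Ctrl 2 overlapped WT 1, and the difference was -0.40 (95% interval -0.80 to -0.001, limma adjusted p = 0.155). Under median-ratio scaling it was -0.66, the largest difference of the 76 on that scale. The genes named for their roles had smaller differences. Mrpl12 differed by 0.048, Mrps12 by 0.14, Mrps22 by 0.095, Mrps18b by 0.19 and Mrpl44 by 0.24, and each of these was below 0 under median-ratio scaling. Mrpl10 differed by -0.10 and Mrpl11 by 0.30.

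**Figure D3:**
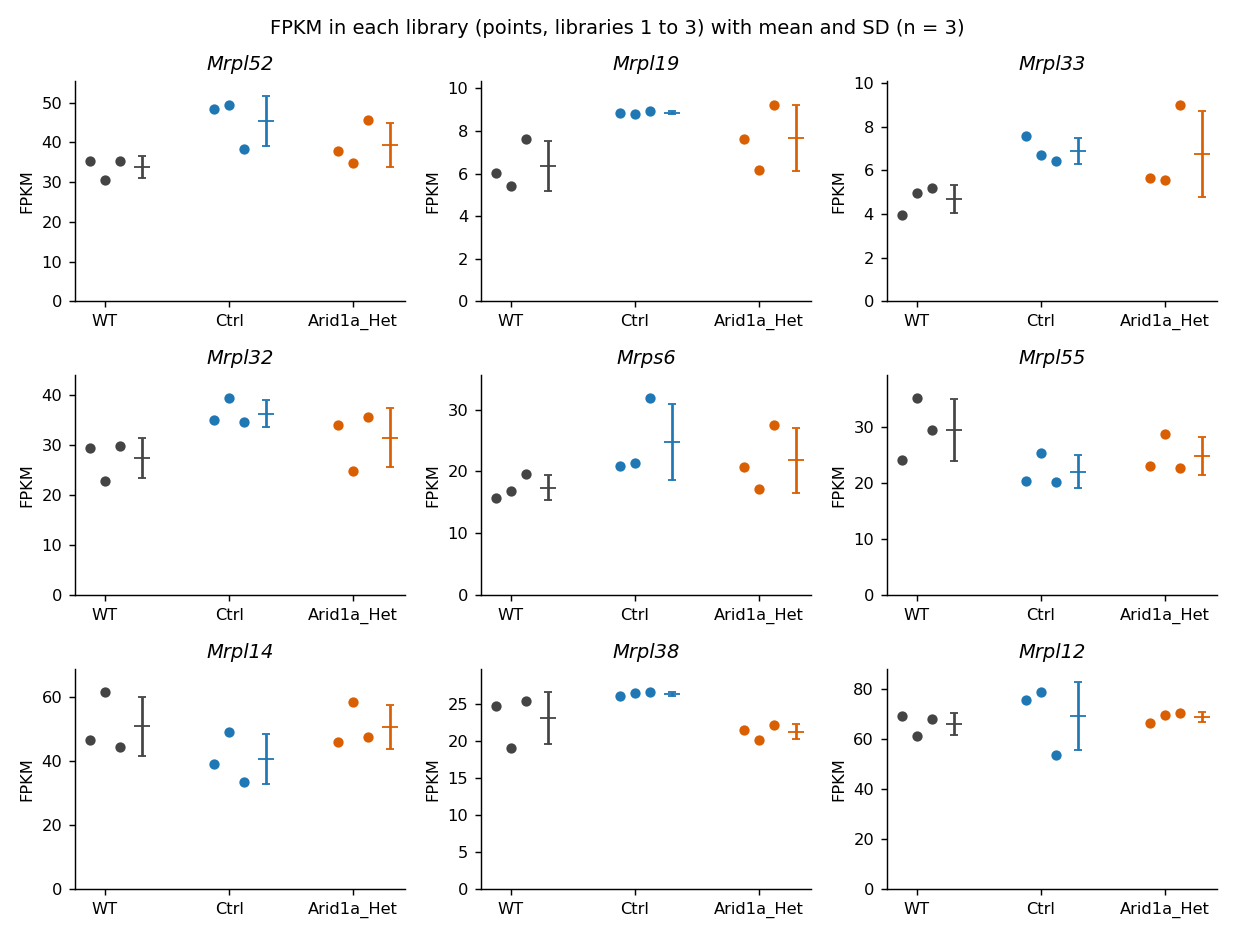
FPKM of 9 of the genes in each library (points from left to right, libraries 1 to 3 of WT, Ctrl and Arid1a_Het), with the mean and SD of 3 libraries at the right of each group; axes start at 0. In Mrpl52, Mrpl19, Mrpl33, Mrpl32 and Mrps6 the Ctrl points lie above the WT points without overlap, while in Mrpl12 the groups overlap.

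The groups did not overlap for 16 of the 76 genes: 14 were higher in every Ctrl than in every WT library, against 33.5% of all tested genes, and 2, Mrps21 and Mrps34, were lower, against 10.2%. The median difference was 0.10 over 49 large-subunit and 0.077 over 26 small-subunit genes, and 0.063 over 43 genes with bacterial homologues and 0.098 over 32 mitochondria-specific ones. The differences between these sets were not tested.

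Arid1a_Het against Ctrl concerns the floxed Arid1a allele where NICD is already present. Again 0 of the 76 genes passed in either direction (limma), where over all tested genes 0% were called higher and 0.00892%, a single gene, lower. At an unadjusted p under 0.05 there were 0 of the 76, against 11.6% of all tested genes, but 5 under median-ratio scaling and 4 under quantile normalization, and voom called 0. Differences ran from -0.30 to 0.32 with every 95% interval within 1 log2 unit of 0, which held for 73.7% of all tested genes. The median was -0.053 with 29 of 76 above 0, against -0.16 over all tested genes, but it was 0.14 with 64 above 0 under median-ratio scaling and 0.092 with 59 under quantile normalization.

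Mrpl38, a mitochondria-specific large-subunit gene, had the lowest p here. It was at 24.7, 19.1 and 25.4 FPKM in WT, 26.0, 26.4 and 26.6 in Ctrl and 21.4, 20.1 and 22.1 in Arid1a_Het. The Ctrl libraries lay within 1 FPKM of each other and above all Arid1a_Het libraries, with a difference of -0.30 (95% interval -0.62 to 0.015, limma adjusted p = 0.442). Mrpl14, the homologue of the bacterial interface protein L14, went the other way by 0.32 (adjusted p = 0.515 by limma). It was at 46.6, 61.4 and 44.2 FPKM in WT, 39.1, 48.9 and 33.5 in Ctrl and 45.8, 58.5 and 47.4 in Arid1a_Het, so its groups overlapped. Mrpl21 and Mrpl24, whose bacterial homologues bind the large ribosomal RNA, differed by -0.25 and -0.23 (limma adjusted p = 0.515 and 0.538). In all, 8 of the 76 were lower in every Arid1a_Het than in every Ctrl library, against 22.2% of all tested genes, and 0 were higher, against 2.41%.

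Arid1a_Het against WT compares both changes together, and it shares its libraries with the other comparisons. Here too 0 of the 76 genes passed (limma), against 2.06% of all tested genes called higher and 0.687% lower. At an unadjusted p under 0.05 there were 0 of the 76, against 17.2% of all tested genes, but 3 under median-ratio scaling and 2 under quantile normalization, and voom called 0. The median was 0.0068, against 0.024 over all tested genes, with 40 of 76 above 0. Under median-ratio scaling it was -0.037 with 35 above 0, and under quantile normalization -0.051 with 26. Differences ran from -0.34 to 0.42, and all 95% intervals lay within 1 log2 unit of 0, which held for 74.1% of all tested genes.

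Mrpl33 had the lowest p in this comparison as well, with a difference of 0.42 (95% interval -0.021 to 0.86, limma adjusted p = 0.318), although Arid1a_Het 3, at 9.01 FPKM, stood well above the other libraries of its group. Mrpl36, the homologue of the small bacterial protein L36, was at 40.0, 31.6 and 40.9 FPKM in WT, 45.9, 47.4 and 39.7 in Ctrl and 44.8, 42.4 and 50.9 in Arid1a_Het. Its Arid1a_Het libraries were all above WT, by 0.29 (limma adjusted p = 0.366). Mrpl17, the homologue of bacterial L17 at the tunnel exit, differed by 0.25, and Mrpl9, the homologue of L9, by -0.34 (limma adjusted p = 0.417 and 0.408). For 6 of the 76 the Arid1a_Het libraries were all above WT, against 10.6% of all tested genes, and for 1, Mrpl48, all below, against 8.57%.

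Libraries within a group differed as much as the groups did. The mean log2 level of the 76 genes was 4.16, 4.08 and 4.25 in WT 1 to 3, 4.27, 4.35 and 4.08 in Ctrl and 4.18, 4.13 and 4.25 in Arid1a_Het. In Ctrl 2, 73 of the 76 genes were above their own 9-library mean, and in Ctrl 3 only 19 were. The summed FPKM of all members was 1770 ± 60.2 in WT and 1791 ± 191 in Ctrl (SD, n = 3), and the Arid1a_Het libraries at 1735 to 1812 lay within the range of Ctrl.

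The first principal component of the 76 genes held 49.4% of their variance among libraries and set WT 2 apart at 2.396, followed by Arid1a_Het 2 at 1.18, with Ctrl 2 lowest at -1.11. The second, with 23.6%, set Ctrl 3 apart at 1.86. In the first, the heaviest loadings were of Mrpl3, Mrpl32, Mrpl19 and Mrps27 on one side and Mrpl55, Mrpl14, Mrpl54 and Mrps21 on the other, of which Mrpl3, Mrps27, Mrpl54 and Mrps21 are named here after their values were seen. Mrpl54, a mitochondria-specific large-subunit gene, was at 50.3 FPKM in WT 2 and 32.2 and 39.5 in the other WT libraries. Mrpl3, the homologue of bacterial L3, was at 4.42 FPKM in WT 2 and 6.39 and 6.72 in the others. WT 2 was thus the highest library of WT for the first of these genes and the lowest for the second.

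Across the 76 genes, the deviation of WT 2 was correlated with the log2 length used for FPKM at r = -0.40, against -0.050 across all 11209 tested genes, and the deviation of Arid1a_Het 2 at -0.26, against -0.093. In the other 7 libraries r ran from -0.0057 to 0.26 for the 76. These are correlations across genes of single libraries and not over replicates. WT 2 and Arid1a_Het 2 were also the libraries with the largest Pgc share, and WT 2 had the highest parietal marker level; the part of either in this pattern was not tested. Without WT 2 the median of Ctrl against WT was 0.0022, with 39 of 76 above 0, and 1 of the 76 had an unadjusted p under 0.05.

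**Figure D4:**
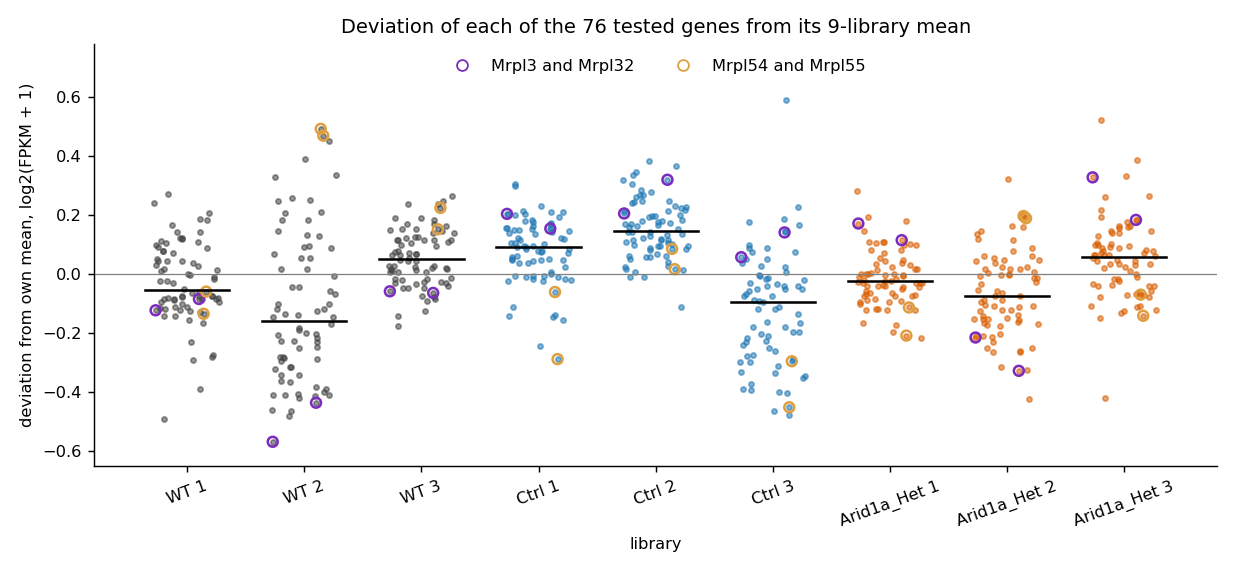
Deviation of each of the 76 tested genes from its own mean over the 9 libraries, in log2(FPKM + 1), by library (points; horizontal bar, median; horizontal jitter has no meaning). In WT 2 the points spread widest, with Mrpl54 and Mrpl55 (orange rings) high and Mrpl3 and Mrpl32 (violet rings) low, while in Ctrl 2 73 of 76 points are above 0.

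Other genes of mitochondrial gene expression were counted from lists. In Ctrl against WT, limma called 0 of 5 further mitoribosome proteins with other symbols (such as Dap3), 0 of 25 assembly and rRNA modification factors, 0 of 14 translation factors, 0 of 20 mitochondrial tRNA synthetases and 0 of 21 genes for mitochondrial DNA and RNA handling. Over all tested genes, 7.01% were called higher and 3.04% lower, and in lists this short 0 calls do not show stability. The medians of these lists were 0.040, 0.13, 0.053, 0.042 and 0.13, all below the 0.235 of all genes. Under median-ratio scaling those of the last 4 lists were -0.068, -0.18, -0.17 and -0.10. Closest to the threshold came Taco1, a translational activator of cytochrome oxidase subunit 1, at -0.47 (limma adjusted p = 0.0617), and Mtfmt, which formylates the initiator tRNA, at 0.60 (limma adjusted p = 0.0851). RNAs encoded in mitochondrial DNA were not analysed here.

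The nuclear genes of the respiratory chain and ATP synthase, whose partners the mitoribosome makes, had another distribution. Of 73 tested OXPHOS subunits all 73 were below 0 in Ctrl against WT, with a median of -0.54, also under median-ratio scaling (-0.80) and quantile normalization (-0.58), and limma called 2 of them lower, Ndufa4 and Ndufa10. Without WT 2 the median was -0.33 with 67 of 73 below 0 and 0 called, and with the replicate block 35 were called lower. Leaving out Ctrl 1, 2 or 3 or WT 3 likewise left 0 called, and leaving out WT 1 left 4. Their summed FPKM was 10641, 18373 and 12253 in WT and 9270, 10241 and 8030 in Ctrl, without overlap, while the summed FPKM of the mitochondrial ribosomal genes overlapped between these groups. Parietal cell markers summed to 4869 to 16620 FPKM in WT and 1772 to 2884 in Ctrl, with none of 15 at 0. Of these 15, 13 differences were below 0 and 2 above, and limma called 7 lower. The parietal sum moved with the OXPHOS sum, and the part of these markers in it was not tested. The difference between the lists was not tested either.

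Among 20 genes of mitochondrial content and import, 2 were called lower in Ctrl and 0 higher (limma), and of these Cs (citrate synthase) fell by 0.64 on the log2 scale (limma adjusted p = 0.019). The replicate block added 2 genes called higher, and median-ratio scaling called 6 lower. Without any single Ctrl library, WT 2 or WT 3, 0 of the 20 were called. The cytosolic ribosomal protein genes, the counterpart in the cytoplasm, had 63 of 63 differences above 0 with a median of 0.42 and 4 called higher (limma), but 58 above 0 with a median of 0.16 under median-ratio scaling. With the replicate block 9 were called higher, and without Ctrl 1 or Ctrl 3 none was, without Ctrl 2 or WT 2 a single one. Many of them have pseudogenes, which makes their levels uncertain. Some other marker lists moved with them and others moved the other way, and their part in the difference was not tested. Of 8 pit cell markers, 0 differences were above 0 and 8 below, and limma called 4 lower. Of 7 enteroendocrine markers, 1 difference was above 0 and 6 below, and limma called 4 lower. Of 4 muscle and mesenchyme markers tested, 0 were above 0 and 4 below, with 0 called. The summed FPKM of 11 leukocyte markers was 61.0 to 143 in WT and 444 to 720 in Ctrl, with none at 0 in either group. Of the 8 leukocyte markers tested, 6 differences were above 0 and 2 below. Only the mast cell protease genes Mcpt1 and Mcpt2 were called, both higher (limma). The summed FPKM of 8 mucous neck and metaplasia (SPEM) markers was 5806 to 11644 in WT and 11998 to 20391 in Ctrl, with none at 0. Of these 8, 7 differences were above 0 and 1 below, and limma called 4 higher, or 6 with the replicate block. For 12 proliferation genes the sum was 47.0 to 190 in WT and 209 to 221 in Ctrl. All 12 differences were above 0, also under both scalings, and 0 were called, or 3 with the replicate block and 2 without WT 1.

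**Figure D5:**
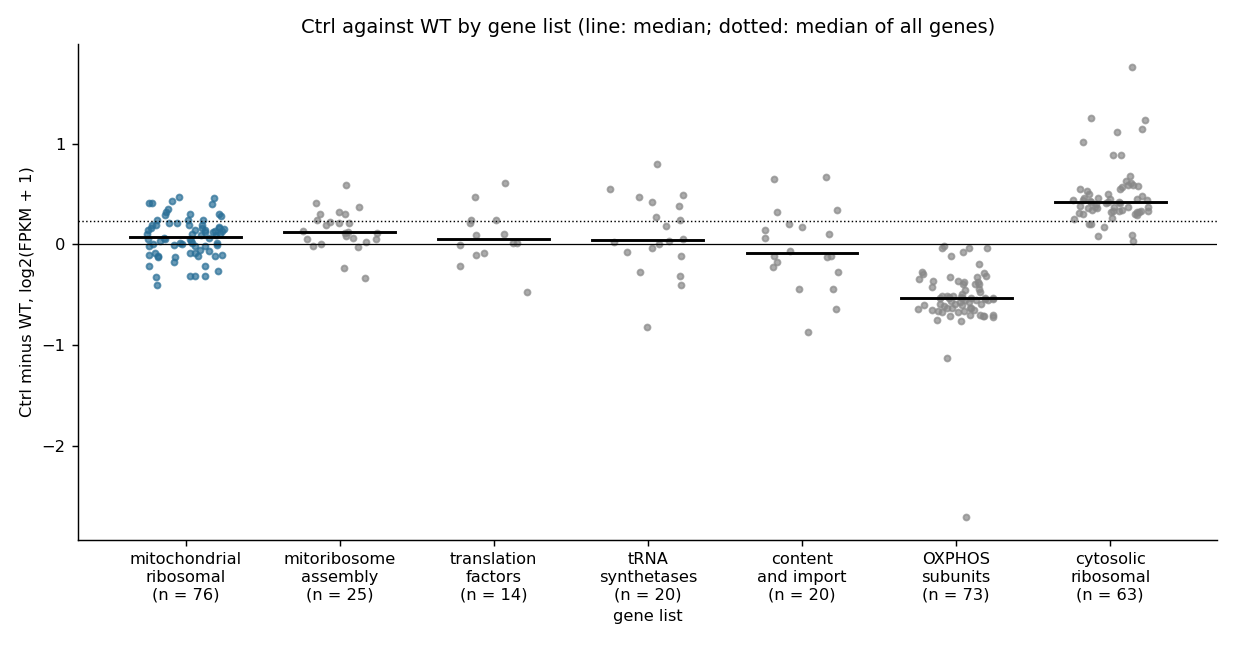
Difference between Ctrl and WT in log2(FPKM + 1) for each tested gene (points; horizontal jitter has no meaning) of 7 lists, with list medians (bars) and the median of all tested genes (dotted line). The mitochondrial ribosomal genes lie between -0.40 and 0.47 around a median of 0.078, the OXPHOS subunits all below 0 and the cytosolic ribosomal genes all above 0 as deposited.

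Among 12 regulators of mitochondrial gene expression, limma called Myc higher, by 1.37 (adjusted p = 0.019), and the estrogen-related receptor genes Esrrg and Esrrb lower, by -3.02 and -1.33 (adjusted p = 0.0297 and 0.0361). Myc was at 11.8, 5.53 and 9.89 FPKM in WT, 22.8, 23.9 and 25.6 in Ctrl and 17.2, 9.94 and 16.9 in Arid1a_Het, so that Ctrl was above both other groups. Without WT 2 only 1 regulator was called, higher, and without any single Ctrl library or WT 3 none of the 12 was. Nrf1, Gabpa, Gabpb1 and Yy1, which encode the factors of the NRF1, ETS and YY1 motifs, were not among the called genes. Esrrg and Esrrb, called lower, encode factors of the remaining motif searched, that of the estrogen-related receptors. In Ctrl against WT, limma also called 7 of 15 parietal cell markers lower. Their part in the fall of Esrrg and Esrrb was not tested, nor was any action of these factors on the mitochondrial ribosomal genes. In Arid1a_Het against Ctrl, 0 genes of any of these lists were called. Over all tested genes in that comparison, 0% were called higher and 0.00892%, a single gene, lower.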

How the data were processed

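Gene-level values of poly(A) RNA from corpus glands were used as the authors deposited them, in FPKM, for 18423 genes in 9 libraries. Libraries were stranded, per the labels' protocols, and STAR 2.4.2a and the builds GRCm38 and mm10 are named in the submitters' processing notes. The counting tool and the use of reads with several matches are not given in the sources used here. Whole reads were recovered from the FPKM steps for 100% of genes within a tolerance of 0.01, and give the depth and the voom alternative. They are the smallest whole numbers that fit, so the reads and implied length of a gene whose 9 counts share a common factor would be too low by that factor. The gene length behind each FPKM follows from them. It equals the bases of all GENCODE M21 exons for 57 of the 77 genes and ran from 566 to 8631 bases.

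Groups were taken from the labels' titles. limma 3.58.1 in R 4.3.3 (lmFit, eBayes with an intensity trend) was run on log2(FPKM + 1) in 1 fit that estimated 3 group means from the 9 libraries, over 11209 genes that reached 1 FPKM in 3 or more of them, and was tested on simulated data. Genes were called at a Benjamini-Hochberg adjusted p under 0.05. A fold on this scale understates the change of low genes. Deviations from the group means were correlated between WT and Ctrl libraries with equal numbers (0.207, 0.336 and 0.138). For Arid1a_Het 1 to 3 the correlations were 0.252, 0.563 and -0.279 with WT and -0.151, 0.467 and -0.020 with Ctrl. The replicate block added the replicate number as a term for all 9 libraries, Arid1a_Het included. The labels state no pairing, so the block rests on the data alone.

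The members and gene lists were chosen with earlier results of these data known. Named are, in each comparison, the 4 members of lowest p; the 4 of highest and 3 of lowest level; the member not tested; the one farthest against the majority; 7 for their roles; and of each list up to 4 of lowest p. Alternatives were a pseudocount of 0.1, no filter, median-ratio scaling, a minimum FPKM of 5 and a fit of only the 2 groups compared. Others were quantile normalization, the replicate block, voom on reads and each library left out. The last left out both Ctrl 1 and Arid1a_Het 3, the libraries of highest mean pancreas marker level. Python 3.11.15, numpy 2.4.6, pandas 2.3.3 and matplotlib 3.10.9 were used for tables and plots. The values of 1 gene of the list of mitochondrial content and import are not reported here.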

Additional observations from a re-analysis of the deposited data

How the results depend on the processing

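In each of the 3 comparisons 0 of the 76 genes were called in either direction under all alternatives run, leaving out each library in turn included, except that the replicate block called 1 gene higher in Ctrl against WT, Mrps6. The block changed no other call of a mitochondrial ribosomal gene. The median difference moved with scaling in Ctrl against WT (median-ratio -0.15, quantile -0.15) and in Arid1a_Het against Ctrl (0.14 and 0.092), since each scaling shifts all genes; leaving out 1 library gave 0.0022 to 0.15, -0.13 to -0.0097 and, for Arid1a_Het against WT, -0.028 to 0.053. Of 27 results for named genes, 9 changed sign in Ctrl against WT under some alternative, none past the threshold, and the cause was not tested. With median-ratio scaling Mrpl12 was at -0.22, Mrps36 at -0.13, Mrps33 at -0.083, Mrps12 at -0.11, Mrpl44 at -0.017, Mrps22 at -0.13 and Mrps18b at -0.038. With quantile normalization Mrpl12 was at -0.034, Mrps36 at -0.36, Mrps33 at -0.23, Mrps12 at -0.0056, Mrps22 at -0.20 and Mrps18b at -0.089. Among single libraries left out, Mrpl28 ran from -0.22 to 0.031, Mrpl48 from -0.18 to 0.11 and Mrpl12 from -0.053 to 0.22. Mrpl12 was at -0.023 without both Ctrl 1 and Arid1a_Het 3. With single libraries left out, Mrps36 ran from -0.074 to 0.081 and Mrps22 from -0.11 to 0.21. With 3 libraries a group, 95% intervals of single members reached up to 0.95 log2 units from 0, or 1.24 under median-ratio scaling, so a difference of that size in a single gene is not shown to be absent.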

Other observations

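The order of levels depends on the gene length used for FPKM. Mrpl42 is first per length with 74.5 FPKM but 21st of the members by reads, with a mean of 1312 reads. Its values imply a length of 666 bases, where GENCODE M21 gives 3682 exon bases, if its 9 read counts share no common factor. Mrpl12, with 1532 bases in both, is first by reads with a mean of 2763. Mrps35 and Mrpl15 have implied lengths of 8631 and 8487 bases, the longest of the members. Differences between groups do not depend on these lengths beyond the added pseudocount.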
